A study of Mus musculus with 18 samples.

Results

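Glycosaminoglycan synthesis was followed through 45 genes that encode the enzymes of the linker, the chondroitin, dermatan and heparan sulfate chains, their sulfation and their precursor supply. They were taken by name from the 51912 genes counted in this series, all 45 were found, and all were among the 24495 genes that were tested, those reaching a sum of 10 read pairs in the 18 libraries. The list was drawn from general knowledge of the pathway and not from measured values, but not blind to the data. Earlier results, in which chondroitin sulfate categories were enriched among genes raised by ethanol in IP, were known when it was chosen. The cells were primary astrocyte cultures from neonatal cortex of mice with the transgene Tg(Aldh1l1-EGFP/Rpl10a)JD130Htz on a B6;FVB background, which places an EGFP tag on ribosomal protein RPL10A under the *Aldh1l1* promoter. Equal numbers of male and female cortices were pooled for culture, so each replicate is a dish of the same kind of mixed culture and not an animal, and p-values measure the spread between dishes. Control dishes received serum-free medium alone and the other dishes the same medium with 50 mM ethanol for 24 h. In translating ribosome affinity purification (TRAP), tagged ribosomes are pulled down with antibodies to GFP, which leaves ribosome-bound mRNA of cells that use the *Aldh1l1* promoter (IP). The input is RNA of the lysate before the pull-down, cleared of insoluble debris by centrifugation. IP libraries came from 6 control and 6 ethanol-treated dishes, and input libraries from 3 dishes of each treatment, replicates 4 to 6.

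Glycosaminoglycans are long sugar chains carried on proteoglycan core proteins. Synthesis starts with a short linker built on a serine of the core protein. Extension with glucuronic acid and N-acetylgalactosamine then gives chondroitin sulfate, and extension with glucuronic acid and N-acetylglucosamine gives heparan sulfate. Epimerases convert part of the glucuronic acid to iduronic acid, which turns chondroitin into dermatan sulfate, and sulfotransferases add sulfate from the donor PAPS at defined positions. Endosulfatases later remove some of the sulfate from finished heparan sulfate at the cell surface. Astrocytes secrete chondroitin sulfate proteoglycans of the brain matrix, and the sulfation pattern of the chains is known to affect binding of growth factors and growth of neurites.

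Gene counts summed to 74239854 to 132810705 read pairs in a library, with a median of 84119135. The targeted cell type was checked in the pull-down. *Aldh1l1* ranged from 342 to 395 CPM (TMM-scaled counts relative to library size) in IP and from 166.2 to 193 CPM in input libraries, and was higher in IP by 1.05 ± 0.0216 on the log2 scale (SE, adjusted p = 5.5e-51, edgeR). *Rpl10a*, which the files count without telling tagged from untagged copies, was lower in IP (log2 fold change −0.53). Of 9 astrocyte markers, 8 were higher and 1 was lower in IP. Of 8 microglia markers, 7 were lower in IP, and their summed level was 60.7 to 75.8 CPM in input and 9.63 to 13.2 CPM in IP libraries. Markers of other cells were not all lower in IP, with 4 higher and 2 lower of 8 neuron markers, 4 higher and 3 lower of 8 oligodendrocyte markers, 3 higher and 2 lower of 7 tested vascular markers, and 3 higher and 5 lower of 8 fibroblast and meningeal markers. In these bulk samples, fewer cells of a type and less RNA per cell cannot be told apart.

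Ethanol raised 18 of the 45 genes in the IP fraction, and none was lower at an adjusted p of 0.05 (edgeR). The 18 were 40.0% of the list, beside 21.4% of all genes tested that changed in either direction, 11.9% that were higher and 9.48% that were lower. All 18 were among the 41 genes of the list with a mean of at least 1 CPM, or 43.9% of these, while 36.8% of all genes at that level were called and 20.8% were higher. At an unadjusted p under 0.05 there were 21 genes, beside 30.7% of all genes. None passed a test for a change above 1.2-fold, beside 0.388% of all genes in IP. The changes were small, from 4.78% to 14.3%, and the median log2 fold change over the 45 genes was 0.02, beside 0.01 over all genes tested. In 6 genes, *Chst14*, *Dsel*, *Ext2*, *Extl3*, *Sulf1* and *Sulf2*, every IP ethanol library was above every IP control library, and in no gene below, beside 9.96% of all genes without overlap, 5.09% higher and 4.87% lower. In the input fraction 9 genes were higher and 2 were lower, beside 15% of all genes changed, 7.21% higher and 7.78% lower. The input groups of 3 did not overlap in 20 genes, 13 higher and 7 lower, beside 27.1% of all genes, 14% higher and 13.1% lower. The genes higher in both fractions were *Chst12*, *Chst14*, *Dsel*, *Ext2*, *Hs2st1*, *Sulf1* and *Sulf2*, which are 7 of the 18 called in IP and of the 9 called higher in input. The share of all genes higher in both fractions is not given, so these 7 have no background beside them. In both fractions 24 of the genes did not pass.

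The IP libraries were also divided into replicates 1 to 3 and replicates 4 to 6, and each set was tested alone. Of the 7 genes higher in both fractions, 5 passed in each set: *Chst12*, *Chst14*, *Ext2*, *Sulf1* and *Sulf2*. The sets called 12.2% and 15.2% of all genes, with 6.63% and 7.45% higher. The share of all genes that passed in each set and in input is not given. Both sets belong to the 12 libraries that had already picked these genes, so passing in them is no independent support. The 250 bases before the start sites of the 5 genes are printed to show the sequence upstream of genes called in each set. RefSeq (GRCm38.p6) gave an entry for 36 of the 45 genes, and *Sulf1* is among the 9 without one. Capitals mark CACGTG, the core of an E-box, and GGGCGG, the core of a GC box, searched on both strands, so that the latter also appears as CCGCCC. Although the 2 motifs can share a base where they meet, they do not in these 4 sequences. Each sequence runs 5′ to 3′ on the strand of the gene.
*Chst12*, chr5:140505359-140505608, plus strand: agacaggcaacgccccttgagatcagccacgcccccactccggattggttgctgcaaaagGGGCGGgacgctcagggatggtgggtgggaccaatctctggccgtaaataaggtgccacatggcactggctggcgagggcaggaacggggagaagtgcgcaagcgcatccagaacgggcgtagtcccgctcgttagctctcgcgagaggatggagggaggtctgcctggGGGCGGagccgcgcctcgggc
*Chst14*, chr2:118926247-118926496, plus strand: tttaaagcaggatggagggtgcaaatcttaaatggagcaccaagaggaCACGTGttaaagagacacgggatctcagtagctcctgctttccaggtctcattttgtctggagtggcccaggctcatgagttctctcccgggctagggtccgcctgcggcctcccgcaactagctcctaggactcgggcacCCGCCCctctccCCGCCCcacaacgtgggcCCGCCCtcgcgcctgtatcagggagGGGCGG
*Ext2*, chr2:93822569-93822818, minus strand: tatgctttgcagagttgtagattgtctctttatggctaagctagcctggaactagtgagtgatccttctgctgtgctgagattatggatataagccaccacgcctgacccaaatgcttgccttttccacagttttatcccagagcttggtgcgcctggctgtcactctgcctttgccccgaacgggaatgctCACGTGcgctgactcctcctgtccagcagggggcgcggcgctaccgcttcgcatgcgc
*Sulf2*, chr2:166155684-166155933, minus strand: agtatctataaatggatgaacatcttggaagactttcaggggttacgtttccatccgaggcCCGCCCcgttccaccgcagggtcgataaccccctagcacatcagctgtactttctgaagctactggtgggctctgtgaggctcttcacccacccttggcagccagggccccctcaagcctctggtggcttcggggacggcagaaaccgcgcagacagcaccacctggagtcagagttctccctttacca
CACGTG stood 202 bases before the start of *Chst14* and 58 bases before that of *Ext2*, and not in the windows of *Chst12* and *Sulf2*. It was found in 4 of the 36 windows (11.1%; *Chst14*, *Chsy1*, *Ext2* and *Hs3st3a1*) and in 6.02% of the 32851 windows of all genes. GGGCGG was found in 26 of the 36 windows (72.2%) and in 32.7% of all windows, and the median GC content was 65.0% in the 36 windows and 52.4% in all. The sets are unlike. For the list, 1 window a gene was kept, the one nearest its annotated start, whereas the 32851 windows were not reduced in this way or limited to expressed genes. A match is only a run of letters, and no binding was measured.

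**Figure D1:**
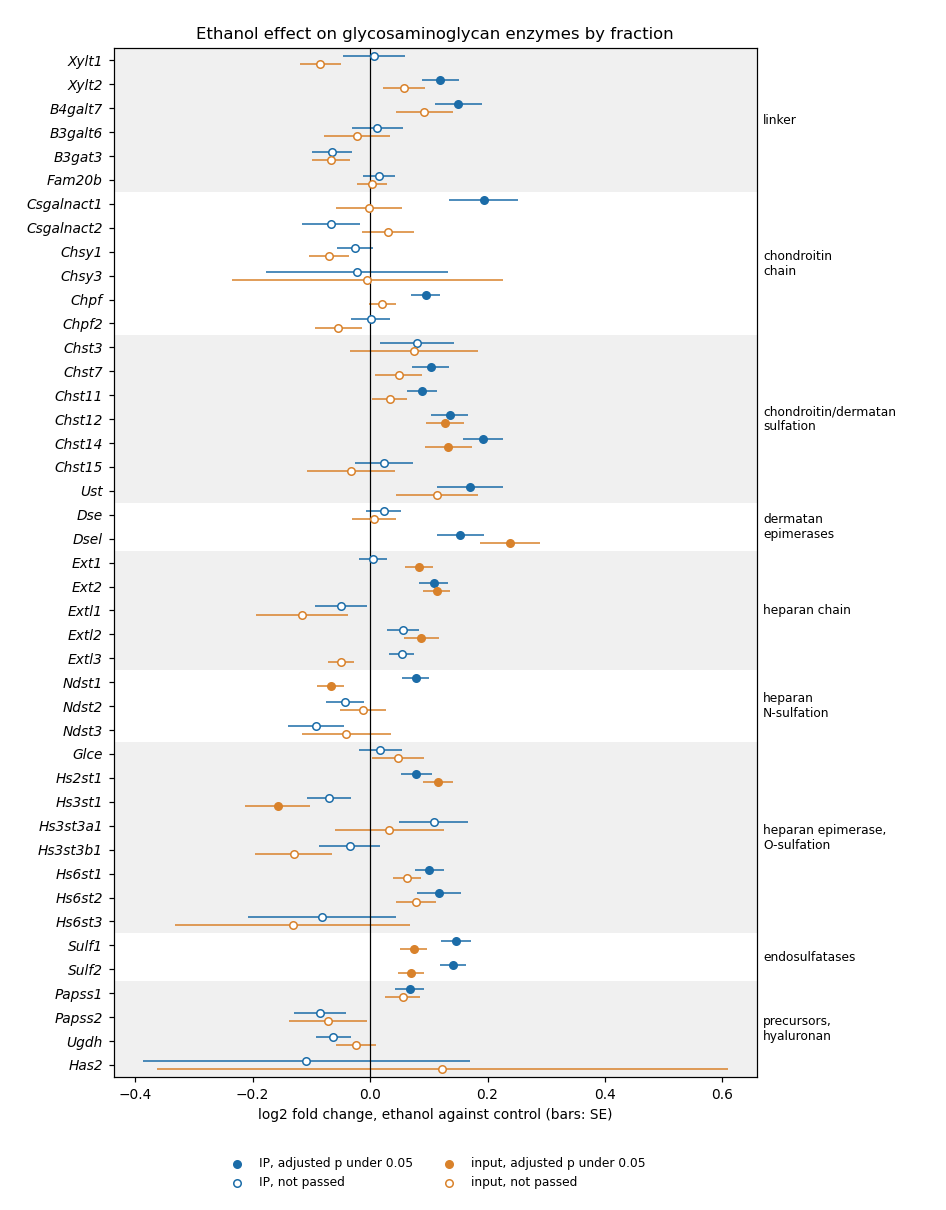
Log2 fold change of ethanol against control (x axis, bars are SE) in IP (blue, 12 libraries) and input (orange, 6 libraries) for 43 genes grouped by role, with filled points at an adjusted p under 0.05. *Chst13* and *Ndst4*, with very few read pairs, are left out. Most filled points lie between 0.07 and 0.24, and *Ndst1* is filled on opposite sides of 0 in the 2 fractions.

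The linker is started by the xylosyltransferases *Xylt1* and *Xylt2*, extended by the galactosyltransferases *B4galt7* and *B3galt6* and the glucuronosyltransferase *B3gat3*, and phosphorylated on xylose by *Fam20b*. Ethanol raised 2 of these 6 genes in IP and none in input. *B4galt7* lay at 15.6, 17.1 and 18.5 CPM (lowest, median and highest) in IP control and at 17.6, 18.9 and 20.1 CPM in IP ethanol libraries. The ranges overlapped, and the log2 fold change was 0.15 ± 0.0404 (adjusted p = 0.00362, edgeR). In input, *B4galt7* was 19.2, 20.1 and 20.1 CPM in control and 21.3, 20.7 and 21.4 CPM in ethanol libraries, without overlap, and did not pass (log2 fold change 0.09, adjusted p = 0.225, edgeR). *Xylt2* lay at 36.2, 37.7 and 39.5 CPM in IP control and at 37.9, 40.8 and 42.5 CPM in IP ethanol libraries (log2 fold change 0.12 ± 0.0318, adjusted p = 0.00324, edgeR). Its call was lost once trends of GC content and length were taken out of each library (0.06, adjusted p = 0.106, edgeR). The other xylosyltransferase, *Xylt1*, was at 0.01 in IP and −0.08 in input on the log2 scale and passed in neither. *B3galt6*, *B3gat3* and *Fam20b* lay between −0.07 and 0.02 in both fractions and did not pass. The deposited counts ignore strand, and *B4galt7* and *Fam20b* overlap a gene on the opposite strand, so that they hold fewer pairs than counts of the sense strand do (112% and 116% of the deposited counts).

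Chondroitin chains are begun by the N-acetylgalactosaminyltransferases *Csgalnact1* and *Csgalnact2* and polymerised by *Chsy1*, *Chsy3* and the polymerising factors *Chpf* and *Chpf2*. *Chpf* and *Csgalnact1* rose in IP, and none of the 6 passed in input. *Chpf* was the most abundant of them, at 397, 409 and 422 CPM in IP control and at 403, 437 and 454 CPM in IP ethanol libraries. The ethanol libraries were higher by 0.09 ± 0.0245 on the log2 scale (adjusted p = 0.00252, edgeR), with 1 ethanol library inside the control range. In input, *Chpf* was 315, 330 and 338 CPM in control and 325, 340 and 335 CPM in ethanol libraries, which overlapped. *Csgalnact1*, a low gene, lay at 5.33, 5.85 and 6.69 CPM in IP control and at 6.39, 6.54 and 7.41 CPM in IP ethanol libraries. Its log2 fold change in IP was 0.19 ± 0.0588 (adjusted p = 0.0113, edgeR). Without IP control replicate 2 or without IP ethanol replicate 4, its highest library, the call was lost (adjusted p up to 0.0666, log2 fold change at least 0.16). In input it was 16.1, 14.1 and 14.6 CPM in control and 15.5, 15.2 and 14.2 CPM in ethanol libraries, which overlapped and did not pass (0.00, adjusted p = 0.991, edgeR). *Csgalnact2*, *Chsy1*, *Chsy3* and *Chpf2* lay between −0.07 and 0.03 in both fractions. *Chsy3* stayed under 1 CPM in every library, at 0.545 to 0.953 CPM in IP control. The value of *Chpf2* is uncertain, since it shares its locus with *Smarcd3* on the opposite strand and counts of the sense strand were 205% of the deposited counts.

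In the sulfation of chondroitin and dermatan 5 of 8 genes were higher in IP, and 2 of them also in input. The enzymes are the 4-O-sulfotransferases *Chst11*, *Chst12* and *Chst13*, the dermatan 4-O-sulfotransferase *Chst14*, the 6-O-sulfotransferases *Chst3* and *Chst7*, the sulfotransferase *Chst15*, which adds a further sulfate to 4-sulfated N-acetylgalactosamine, and the uronyl 2-O-sulfotransferase *Ust*. *Chst14* lay at 28.2, 29.7 and 31.4 CPM in IP control and at 32.4, 34.2 and 35.7 CPM in IP ethanol libraries. Every ethanol library was above every control library, and the log2 fold change was 0.19 ± 0.0335 (adjusted p = 8.9e-06, edgeR). In input it was 29.8, 30.5 and 30.3 CPM in control and 31.9, 34.3 and 33.7 CPM in ethanol libraries (0.13 ± 0.0400, adjusted p = 0.00851, edgeR), again without overlap. That call in input was lost without input ethanol replicate 5 or replicate 6 (adjusted p up to 0.0807, log2 fold change at least 0.11).

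*Chst12* was raised as well, at 34, 34.8 and 35.2 CPM in IP control and at 35.1, 38.6 and 39.6 CPM in IP ethanol libraries (0.14 ± 0.0317, adjusted p = 0.000781, edgeR). The lowest ethanol library lay within the narrow control range. In input, *Chst12* was 53.1, 52.9 and 52.0 CPM in control and 60.7, 56.1 and 56.3 CPM in ethanol libraries (0.13 ± 0.0319, adjusted p = 0.000934, edgeR), and without input ethanol replicate 4, the highest, it was at 0.09 (adjusted p = 0.0622). *Ust* lay at 5.66, 5.96 and 6.47 CPM in IP control and at 6.46, 6.69 and 7.45 CPM in IP ethanol libraries (0.17 ± 0.0560, adjusted p = 0.0200, edgeR). The groups met at their edges, and the call was lost without IP control replicate 3 or replicate 6 or IP ethanol replicate 1 (adjusted p up to 0.0758, log2 fold change at least 0.14). In input, *Ust* was 8.94, 9.24 and 8.47 CPM in control and 9.003, 9.69 and 10.3 CPM in ethanol libraries, which overlapped and did not pass (adjusted p = 0.330, edgeR). *Chst7* and *Chst11* were higher in IP by 0.10 and 0.09 (adjusted p = 0.0110 and 0.00628, edgeR) and did not pass in input. *Chst7* lost its call without IP control replicate 4 or replicate 6 (adjusted p up to 0.0630, log2 fold change at least 0.08). *Chst3* and *Chst15* lay between −0.03 and 0.08 in the 2 fractions and did not pass. *Chst13* was nearly absent, with 17, 7, 8 and 11 read pairs in all of IP control, IP ethanol, input control and input ethanol, and no fold is given for it.

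The 2 dermatan epimerases differed in their values. *Dse* lay at 34.03 to 36.0 CPM in IP control and at 34.8 to 35.7 CPM in IP ethanol libraries (0.02 ± 0.0303, adjusted p = 0.680, edgeR) and was at 0.01 in input. *Dsel*, its paralog, lay at 17.1, 17.9 and 18.4 CPM in IP control and at 18.5, 19.5 and 22.4 CPM in IP ethanol libraries. The groups did not overlap, and *Dsel* was higher by 0.15 ± 0.0407 (adjusted p = 0.00310, edgeR). In input, *Dsel* was 17.7, 16.8 and 16.2 CPM in control and 21.1, 19.1 and 19.9 CPM in ethanol libraries. The fold change there, 0.24 ± 0.0511 (adjusted p = 7.2e-05, edgeR), was the largest increase of the list in input among genes that passed, and no omission of a single library ended the call. The ratio of *Chst14* to *Dse*, per length, was 1.87 to 2.20 in IP control and 2.20 to 2.40 in IP ethanol libraries, and 1.93 to 2.07 and 2.16 to 2.19 in the same groups of input. The ranges lay next to each other without overlap in IP and stood apart in input, and no test was made on the ratio.

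**Figure D2:**
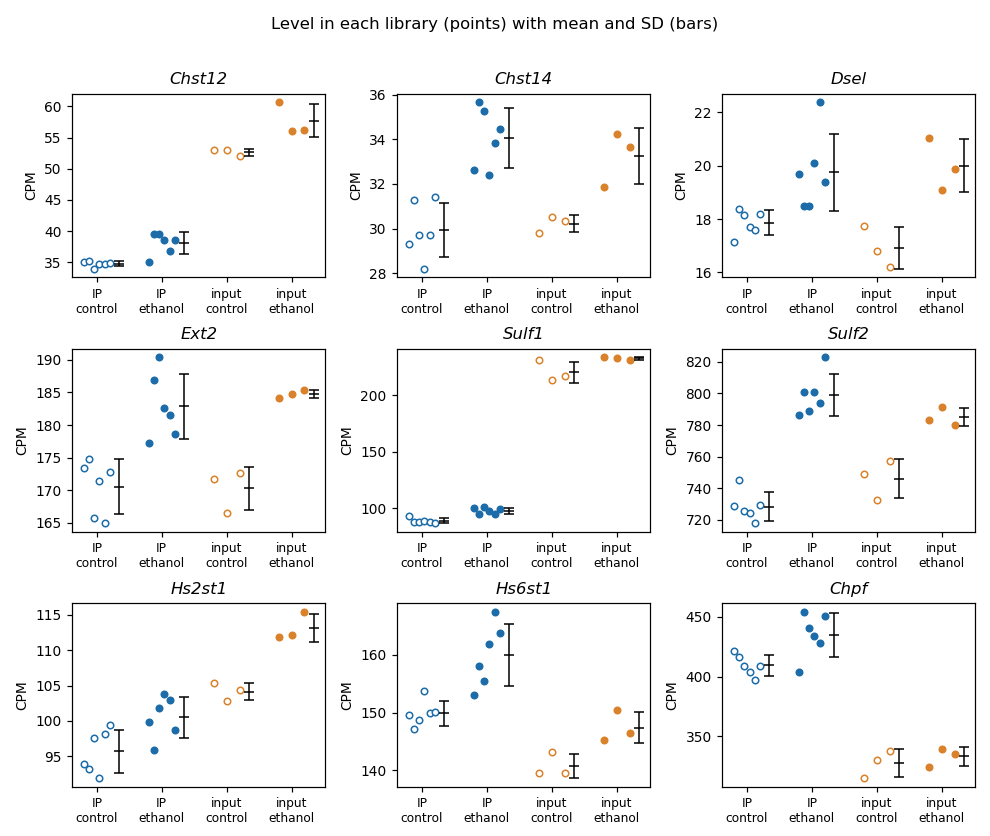
CPM in each library (points, y axis not starting at 0) for 9 genes, in IP control, IP ethanol, input control and input ethanol (x axis), with the mean and SD of the group as a bar at the right of its points. IP ethanol libraries lie above all IP control libraries for *Chst14*, *Dsel*, *Ext2*, *Sulf1* and *Sulf2*, while they overlap the control libraries for *Chst12*, *Hs2st1*, *Hs6st1* and *Chpf*.

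Heparan sulfate is polymerised by the complex of *Ext1* and *Ext2*, and *Extl1*, *Extl2* and *Extl3* are related transferases, of which *Extl3* starts the chain. *Ext2* rose in both fractions. It lay at 164.9, 172 and 175 CPM in IP control and at 177, 182 and 190 CPM in IP ethanol libraries, without overlap (0.11 ± 0.0241, adjusted p = 0.000432, edgeR). In input, *Ext2* was 172, 166.6 and 173 CPM in control and 184, 185 and 185 CPM in ethanol libraries (0.11 ± 0.0233, adjusted p = 2.8e-05, edgeR), and no library decided either call. *Ext1*, its partner, was at a similar level in IP control (151.3, 154.8 and 159 CPM) and IP ethanol libraries (152.4, 155.1 and 156.1 CPM), with a log2 fold change of 0.00 ± 0.0232 (adjusted p = 0.928, edgeR). In input, *Ext1* was 151.03, 150.01 and 152.5 CPM in control and 161.8, 162.9 and 156.9 CPM in ethanol libraries, without overlap, and was called higher (0.08 ± 0.0237, adjusted p = 0.00526, edgeR). The call in input was lost with GC and length trends taken out (0.06, adjusted p = 0.0865, edgeR), and the test of a difference in the ethanol effect on *Ext1* between the fractions did not pass (−0.09 ± 0.0364, adjusted p = 0.786, edgeR). *Extl2* was also called in input alone, at 65.7, 63.7 and 62.0 CPM in control and 67.0, 66.9 and 70.1 CPM in ethanol libraries (0.09 ± 0.0297, adjusted p = 0.0264, edgeR). Its IP values were 68.0, 69.7 and 73.4 CPM in control and 70.5, 71.5 and 76.8 CPM in ethanol libraries, which overlapped (0.06, adjusted p = 0.142, edgeR). With GC and length trends taken out, *Extl2* passed in IP too (0.07, adjusted p = 0.0233, edgeR). The call in input was lost without input control replicate 5 or replicate 6 or input ethanol replicate 6 (adjusted p up to 0.264, log2 fold change at least 0.06). *Extl3* showed no overlap in IP, 432 to 446 CPM in control and 452 to 462 CPM in ethanol libraries, and did not pass there (0.05, adjusted p = 0.0704, edgeR). In input *Extl3* was at −0.05 and *Extl1* at −0.12, and neither passed.

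N-deacetylation and N-sulfation open the way for later modification of heparan sulfate and are carried out by *Ndst1* to *Ndst4*. *Ndst1* was called in opposite directions in the 2 fractions, which was known from earlier results of these data. In IP it lay at 338, 352 and 361 CPM in control and at 355, 370 and 378 CPM in ethanol libraries. The groups overlapped, and the log2 fold change was 0.08 ± 0.0233 (adjusted p = 0.0103, edgeR). In input it was 291, 296 and 301 CPM in control and 285, 287 and 278 CPM in ethanol libraries, all 3 below the control libraries (−0.07 ± 0.0229, adjusted p = 0.0274, edgeR). The increase in IP was lost without IP control replicate 2 or replicate 3 (adjusted p up to 0.0848, log2 fold change at least 0.06) and with GC and length trends taken out (0.03, adjusted p = 0.368, edgeR). The decrease in input was lost without input control replicate 5 or replicate 6 or input ethanol replicate 6 (adjusted p up to 0.178, log2 fold change between −0.08 and −0.06) and passed with the trends taken out (−0.08, adjusted p = 0.00528, edgeR).

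The difference of the 2 ethanol effects was tested itself. Over all 18 libraries no gene of the list, and 0% of all genes tested, had an ethanol effect that differed between fractions at an adjusted p of 0.05 (edgeR). At an unadjusted p under 0.05 there were 4 of the 45 genes and 5.96% of all genes. DESeq2 called none of the list either, but gave many of its genes, among them *Dsel*, *Chst14* and *Csgalnact1*, no adjusted p. *Ndst1* was at 0.13 ± 0.0370 in this test with edgeR (adjusted p = 0.675) and at 0.14 ± 0.0349 with DESeq2 (adjusted p = 0.0661). When the dish was a block in the 12 libraries of dishes with both fractions, *Ndst1* passed (0.15 ± 0.0335, adjusted p = 0.00414, edgeR) and was the only gene of the list to do so, beside 0.416% of all genes tested, 0.384% with a higher value in IP. With the dish block and GC and length trends taken out together, the difference was 0.10 ± 0.0286 and did not pass (adjusted p = 0.131, edgeR; 0.143% of all genes passed). *Ndst2* and *Ndst3* lay between −0.09 and −0.01 and did not pass in either fraction. *Ndst4* had 12 to 24 read pairs in all in each group. The share of *Ndst1* in the summed level per length of the 4 genes was 83.8% ± 0.525 (SD, n = 6) in IP control and 84.9% ± 0.438 (n = 6) in IP ethanol libraries, and 81.7% ± 0.489 (n = 3) and 81.2% ± 0.769 (n = 3) in the same groups of input.

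**Figure D3:**
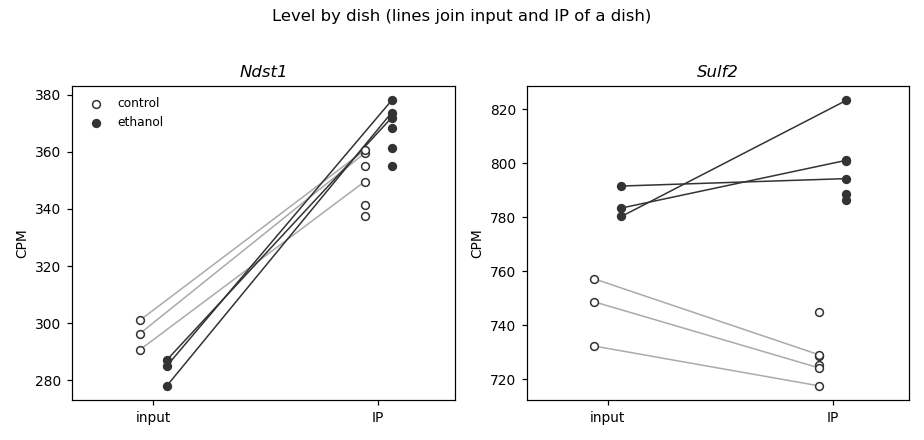
CPM (y axis, not starting at 0) of *Ndst1* and *Sulf2* in input and IP (x axis), with lines joining the 2 libraries of a dish, open points for control and filled points for ethanol dishes. Dishes with an IP library alone have no line. For *Ndst1* the 3 ethanol dishes start below the control dishes in input and end above them in IP, whereas for *Sulf2* the ethanol dishes are higher in both fractions.

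Later modification of heparan sulfate was represented by the C5-epimerase *Glce*, the 2-O-sulfotransferase *Hs2st1*, the 6-O-sulfotransferases *Hs6st1*, *Hs6st2* and *Hs6st3* and the 3-O-sulfotransferases *Hs3st1*, *Hs3st3a1* and *Hs3st3b1*. *Hs2st1*, *Hs6st1* and *Hs6st2* rose in IP. *Hs2st1* lay at 91.9, 95.7 and 99.4 CPM in IP control and at 95.9, 101 and 104 CPM in IP ethanol libraries, with overlap (0.08 ± 0.0262, adjusted p = 0.0220, edgeR). This call was lost without any of 5 libraries (IP control replicates 1, 2 and 4 and IP ethanol replicates 3 and 4, adjusted p up to 0.131, log2 fold change at least 0.06), with GC and length trends taken out (0.05, adjusted p = 0.0782) and with counts of the sense strand (0.07, adjusted p = 0.0617, edgeR). The increase in input was firmer, from 105, 103 and 104 CPM in control to 112, 112 and 115 CPM in ethanol libraries (0.12 ± 0.0257, adjusted p = 0.000143, edgeR). *Hs6st1* was higher by 0.10 ± 0.0245 in IP (adjusted p = 0.00124, edgeR) and at 0.06 in input (adjusted p = 0.0592, edgeR). It overlaps a gene on the opposite strand, and counts of the sense strand, 132% of those deposited, called it higher in IP (0.09, adjusted p = 0.00232, edgeR) and in input (0.06, adjusted p = 0.0421, edgeR). In input it also passed with the replicate number as a block (0.06, adjusted p = 0.0440, edgeR), so that its place among the genes called in IP alone depends on these settings. *Hs6st2* lay at 21.0, 22.8 and 24.2 CPM in IP control and at 23.3, 24.2 and 26.4 CPM in IP ethanol libraries (0.12 ± 0.0379, adjusted p = 0.0172, edgeR). Its groups overlapped, and the call was lost without any of 4 libraries (IP control replicates 2, 3 and 4 and IP ethanol replicate 5, adjusted p up to 0.106, log2 fold change at least 0.09). In input, *Hs6st2* was 47.7, 46.4 and 46.2 CPM in control and 48.9, 51.1 and 48.4 CPM in ethanol libraries (0.08, adjusted p = 0.109, edgeR).

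*Hs3st1*, which makes a rare 3-O-sulfated site, was called lower in input, from 16.5, 16.9 and 15.9 CPM in control to 14.9, 15.2 and 14.2 CPM in ethanol libraries (−0.16 ± 0.0552, adjusted p = 0.0328, edgeR). The 3 ethanol libraries lay below the control libraries, and the call was lost without any of 4 of the 6 libraries (input control replicates 4 and 5 and input ethanol replicates 4 and 6, adjusted p up to 0.161, log2 fold change between −0.18 and −0.14) and with GC and length trends taken out (−0.14, adjusted p = 0.0651, edgeR). In IP it lay at 21.6, 22.9 and 24.1 CPM in control and at 19.6, 21.9 and 23.1 CPM in ethanol libraries, with overlap (−0.07, adjusted p = 0.199, edgeR). *Glce*, *Hs3st3a1*, *Hs3st3b1* and *Hs6st3* ranged from −0.13 to 0.11 over the 2 fractions and did not pass. *Hs3st3a1* shares its locus with a gene on the opposite strand, and counts of the sense strand were 142% of the deposited counts.

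Both endosulfatases, which remove 6-O-sulfate from heparan sulfate outside the cell, were higher with ethanol in both fractions. *Sulf2* was by level the leading gene of the list and lay at 718, 727 and 745 CPM in IP control and at 786, 798 and 823 CPM in IP ethanol libraries. The gap between the groups was wider than either range, and the log2 fold change was 0.14 ± 0.0217 (adjusted p = 7.4e-07, edgeR). In input, *Sulf2* was 749, 732 and 757 CPM in control and 783, 792 and 780 CPM in ethanol libraries, also without overlap (0.07 ± 0.0220, adjusted p = 0.0141, edgeR). *Sulf1* lay at 87.3, 88.0 and 93.5 CPM in IP control and at 94.8, 98.2 and 101 CPM in IP ethanol libraries (0.15 ± 0.0256, adjusted p = 1.0e-05, edgeR). Its groups did not overlap in IP, although IP control replicate 1 came close to the ethanol libraries. In input, *Sulf1* was 231, 213 and 217 CPM in control and 234, 233 and 231 CPM in ethanol libraries (0.07 ± 0.0231, adjusted p = 0.0123, edgeR). The calls in input rest on few libraries. That of *Sulf1* was lost without input control replicate 5 or replicate 6 (adjusted p up to 0.268, log2 fold change at least 0.05) and with GC and length trends taken out (0.06, adjusted p = 0.0620, edgeR), and that of *Sulf2* without input control replicate 5 or input ethanol replicate 5 (adjusted p up to 0.179, log2 fold change at least 0.06). Between fractions, the ethanol effects differed by 0.06 for each gene and did not pass (adjusted p = 0.869 for *Sulf1* and 0.849 for *Sulf2*, edgeR). The ratio of *Sulf1* to *Sulf2* per length overlapped between treatments, at 0.0610 to 0.0667 in IP control and 0.0615 to 0.0664 in IP ethanol libraries.

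The sulfate donor PAPS is made by *Papss1* and *Papss2*, and *Ugdh* makes UDP-glucuronic acid. *Papss1* was the one gene of this group called, in IP alone, at 82.5, 84.4 and 86.1 CPM in control and 85.4, 88.1 and 90.3 CPM in ethanol libraries (0.07 ± 0.0251, adjusted p = 0.0456, edgeR). This call stood at the threshold. It was lost without any of 10 of the 12 libraries, all but IP ethanol replicates 1 and 5 (adjusted p up to 0.183, log2 fold change at least 0.05), and with counts of the sense strand (0.06, adjusted p = 0.118, edgeR). In input, *Papss1* was 67.9, 67.8 and 65.6 CPM in control and 71.8, 68.2 and 69.8 CPM in ethanol libraries (0.06, adjusted p = 0.229, edgeR). *Papss2* was at −0.08 in IP and −0.07 in input and did not pass. The ratio of *Papss1* to *Papss2* per length was 6.86 to 7.86 in IP control and 7.92 to 8.77 in IP ethanol libraries, which did not overlap, and 7.31 to 8.01 and 8.32 to 8.55 in the same groups of input, with no test made. *Ugdh* was at −0.06 in IP and −0.02 in input and did not pass (adjusted p = 0.132 and 0.759, edgeR), and with GC and length trends taken out it was called lower in IP (−0.09, adjusted p = 0.00793, edgeR). The hyaluronan synthase *Has2* was at 0.171 to 0.406 CPM in IP control and 0.0958 to 0.300 CPM in IP ethanol libraries. A gene antisense to it overlaps, and 18.9% of its pairs lay on the opposite strand.

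The correction for GC content and length kept 15 of the 18 increases in IP and left *Xylt2*, *Hs2st1* and *Ndst1* short of the threshold. Under it 3 genes were called lower in IP, *Ugdh*, *B3gat3* (−0.08, adjusted p = 0.0305) and *Ndst2* (−0.07, adjusted p = 0.0490, edgeR), so that the list held 16 increases and 3 decreases, beside 21.7% of all genes called. In input it gave 7 increases and 3 decreases (14.7% of all genes called, 6.5% higher), the decreases being *Xylt1* (−0.10, adjusted p = 0.0391), *Extl3* (−0.06, adjusted p = 0.0447) and *Ndst1*. Of the 10 genes called in IP alone, 9 had a log2 fold change above 0 in input, and none of them had an ethanol effect that passed the test of a difference between fractions. With replicates 4 to 6 of IP alone, as many libraries as in input, 10 genes were higher and none lower (15.2% of all genes called, 7.45% higher). With replicates 1 to 3 alone 7 were higher and none lower (12.2% of all genes called, 6.63% higher).

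**Figure D4:**
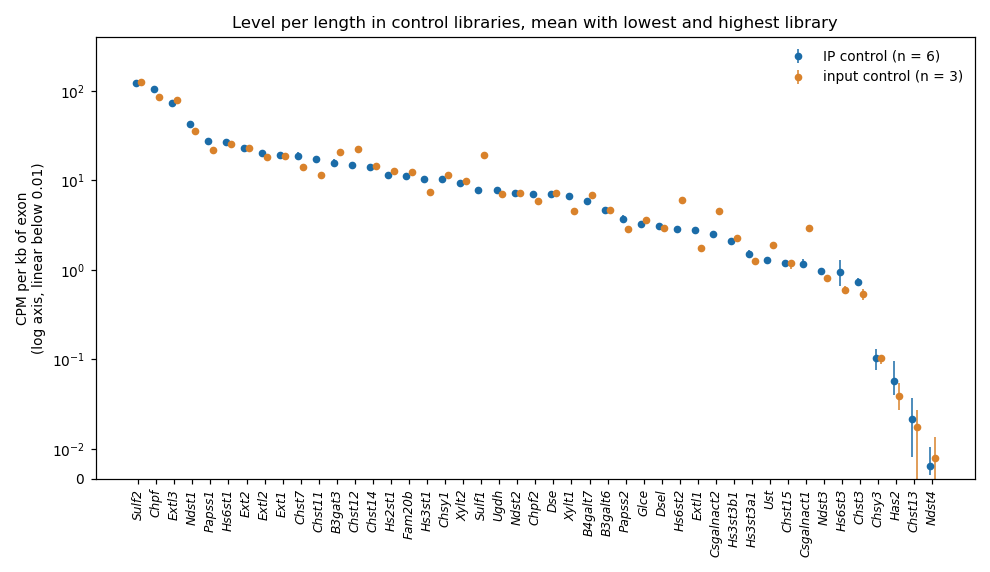
CPM per kb of exon (y axis, log scale above 0.01 and linear below) of the 45 genes in IP control (blue, 6 libraries) and input control libraries (orange, 3 libraries), ordered by the IP mean. Points are means and bars run from the lowest to the highest library. *Sulf2*, *Chpf* and *Extl3* lead, and *Chsy3*, *Has2*, *Chst13* and *Ndst4* lie far below the other genes.

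Levels between genes can be set side by side only per length, here as CPM per kb of merged exons (RPKM). Merged exons can be far longer than the longest transcript, at 7328 against 3721 bases for *Ext2* and 11294 against 5598 bases for *Sulf1*. The order of genes and the ratios between them can depend on that choice. In IP control libraries *Sulf2* led with 124 ± 1.55 RPKM (SD, n = 6), followed by *Chpf* with 106 ± 2.29, *Extl3* with 72.8 ± 0.926 and *Ndst1* with 42.4 ± 1.15. The ranges of these 4 genes did not overlap, and they stood at percentiles 98.6, 98.3, 97.4 and 95.0 of 24424 tested genes with a known exon length. *Papss1* (27.7 ± 0.468) and *Hs6st1* (27.0 ± 0.392) followed in the deposited counts, with overlapping ranges, but their order depends on the pairs of *Hs6st1* lost to the overlapping gene. Within families, 1 member was usually far above the rest. *Chst7* was at 19.0 RPKM and *Chst3*, the other chondroitin 6-O-sulfotransferase, at 0.736 RPKM. *Chst11* (17.3 RPKM) and *Chst12* (14.7 RPKM) were close, with *Chst13* at 0.0213 RPKM, and *Hs6st1* was at 27.0 RPKM with *Hs6st2* at 2.90 and *Hs6st3* at 0.947 RPKM. *Hs3st1* (10.3 RPKM) was the leading 3-O-sulfotransferase of the list. The summed 4-O-sulfotransferases (*Chst11*, *Chst12*, *Chst13*) over the summed 6-O-sulfotransferases (*Chst3*, *Chst7*), per length, gave 1.62 ± 0.0649 (SD, n = 6) in IP control and 1.63 ± 0.0344 (n = 6) in IP ethanol libraries. In input the ratio was 2.32 ± 0.0961 (n = 3) and 2.39 ± 0.0558 (n = 3), above all IP libraries. Ethanol and control ranges overlapped in both fractions, 1.51 to 1.69 and 1.57 to 1.66 in IP and 2.24 to 2.42 and 2.33 to 2.44 in input.

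The 2 fractions differed far more than the treatments. Over the 18 libraries, 17 genes of the list were higher and 13 lower in IP than in input (edgeR), beside 51% of all genes tested that differed, 25.2% higher and 25.8% lower (54.8% at an unadjusted p under 0.05). All IP libraries lay above all input libraries for 12 genes of the list and below for 9, beside 25% of all genes without overlap. Of genes with at least 1 CPM, 41.5% of the list were higher and 31.7% lower, beside 76.3% of all such genes called, 42.5% higher and 33.8% lower. With library totals in place of TMM, the split was 16 higher and 20 lower (51% of all genes, 20.8% higher), and the median of all genes moved from −0.03 to −0.08 on the log2 scale. The dish as a block in 12 libraries gave 17 higher and 13 lower.

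Among genes higher in IP, the 3 with the largest fold changes were *Hs6st3*, *Extl1* and *Chst11*, in that order. *Chst11* was at 92.7, 95.5 and 96.8 CPM in IP control, 96.6, 101 and 104 CPM in IP ethanol, 61.6, 63.0 and 64.7 CPM in input control and 65.3, 63.1 and 65.8 CPM in input ethanol libraries. All IP libraries were above all input libraries (0.62 ± 0.0213, adjusted p = 3.2e-38, edgeR). *Extl1*, a heparan chain transferase of low level, was at 11.3, 12.02 and 12.7 CPM in IP control, 11.1, 11.5 and 11.9 CPM in IP ethanol, 7.42, 7.96 and 7.59 CPM in input control and 6.69, 7.43 and 7.13 CPM in input ethanol libraries. Its fractions did not overlap either (0.67 ± 0.0410, adjusted p = 4.3e-24, edgeR). *Hs6st3* was near 1 CPM, at 1.121, 1.66 and 2.21 CPM in IP control, 1.199, 1.51 and 1.88 CPM in IP ethanol, 0.993, 0.931 and 1.13 CPM in input control and 0.747, 1.32 and 0.716 CPM in input ethanol libraries. The fractions overlapped for this gene (0.68 ± 0.126, adjusted p = 6.6e-06, edgeR). *Xylt1* (0.61), *Hs3st1* (0.51), *Chst3* and *Chst7* (0.46 each), *Papss2* (0.36), *Chpf* (0.35), *Papss1* (0.33) and *Ndst1* (0.31) were also higher in IP.

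The genes furthest below input in IP were *Sulf1*, *Csgalnact1* and *Hs6st2*. *Sulf1* was at 87.3 to 101 CPM in all IP and at 213 to 234 CPM in all input libraries (−1.28 ± 0.0196, adjusted p = 8.6e-60, edgeR), whereas *Sulf2* did not pass (0.00 ± 0.0174, adjusted p = 0.855, edgeR). *Csgalnact1* was at 5.33 to 7.41 CPM in IP and 14.1 to 16.1 CPM in input libraries (−1.25 ± 0.0440, adjusted p = 1.0e-37, edgeR). *Hs6st2* was at 21.0 to 26.4 CPM in IP and 46.2 to 51.1 CPM in input libraries (−1.03 ± 0.0276, adjusted p = 5.8e-45, edgeR). *Csgalnact2* (−0.92), *Chst12* (−0.60), *Ust* (−0.53) and *B3gat3* (−0.42) were lower in IP as well, while *Ext1*, *Ext2*, *Dse*, *Dsel*, *Chst14* and *Chst15* lay between −0.05 and 0.03 and did not pass. Beside these values, the microglia markers had a median log2 fold change of −2.46 and the fibroblast and meningeal markers of −1.32, with a summed level of the latter of 267 to 279 CPM in input and 162 to 182 CPM in IP libraries. The medians of the other lists lay above 0, at 0.30 for neuron, 0.10 for vascular, 0.01 for oligodendrocyte and 0.60 for astrocyte markers. The part of other cell types in the difference between fractions was not tested.

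**Figure D5:**
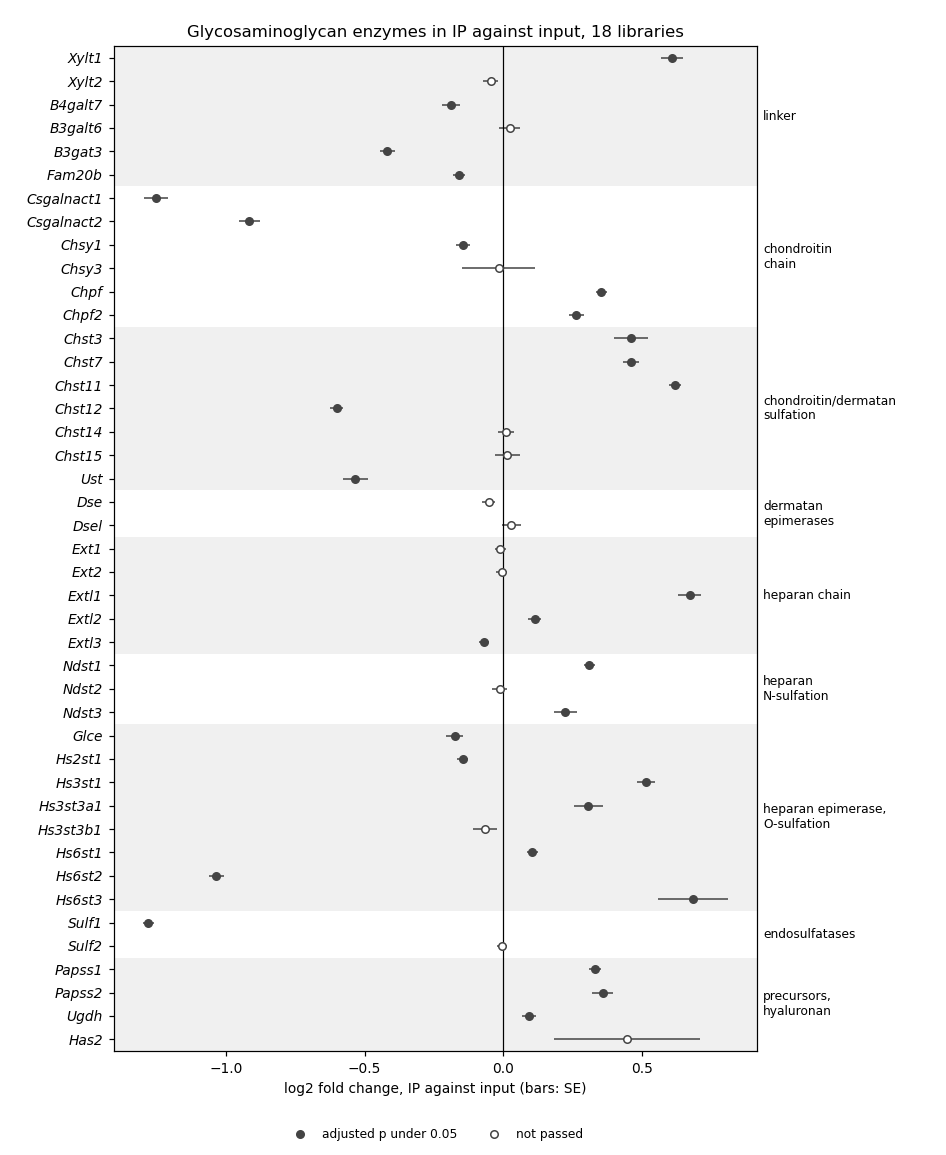
Log2 fold change of IP against input over 18 libraries (x axis, bars are SE) for 43 genes grouped by role, with filled points at an adjusted p under 0.05. *Chst13* and *Ndst4* are left out. *Sulf1*, *Csgalnact1* and *Hs6st2* lie below −1, and *Hs6st3*, *Extl1*, *Chst11* and *Xylt1* lie above 0.6.

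Other genes of the pathway or related to it were read from lists set beside the 45. Of 17 genes of glycosaminoglycan breakdown, 10 were higher and none lower with ethanol in IP, and 5 were higher and 1 lower in input. *Glb1*, the lysosomal beta-galactosidase that acts on keratan sulfate, lay at 108 to 112 CPM in IP control and 125 to 130 CPM in IP ethanol libraries (0.22 ± 0.0238, adjusted p = 6.7e-11, edgeR) and was higher in input by 0.18. *Idua*, which removes iduronic acid from dermatan and heparan sulfate, lay at 45.1 to 48.1 CPM in IP control and 49.6 to 57.0 CPM in IP ethanol libraries (0.20 ± 0.0299, adjusted p = 3.4e-07, edgeR). Neither gene overlapped between treatments. Of 14 genes that supply sugars and sulfate, 1 was higher and 3 were lower in IP, and none was higher and 3 were lower in input. *Bpnt1*, a phosphatase that clears the product of sulfate transfer, lay at 67.3 to 73.1 CPM in IP control and 58.4 to 61.7 CPM in IP ethanol libraries (−0.20 ± 0.0268, adjusted p = 2.0e-08, edgeR) and at −0.19 in input (adjusted p = 1.3e-07, edgeR). A further list of 16 genes held mostly sugar and sulfate transferases, not all of them specific to glycosaminoglycans, and the phosphatase *Pxylp1*. Of these 16, 3 were higher, *Pxylp1* among them, and 1 lower in IP, and 1 was higher in input. *Hs3st4*, a 3-O-sulfotransferase, lay at 5.16 to 6.22 CPM in IP control and 6.61 to 7.53 CPM in IP ethanol libraries (0.37 ± 0.0574, adjusted p = 8.2e-07, edgeR), and *Hs3st2*, at 0.131 to 0.209 CPM in IP control and 0.0380 to 0.0809 CPM in IP ethanol libraries, was lower (−1.42 ± 0.394, adjusted p = 0.00482, edgeR). The share of all genes called in these comparisons is that given for IP and input above.

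Markers of each cell type that passed for ethanol are given beside these counts. Among 9 astrocyte markers 4 were higher and none lower in IP (*Slc1a3*, *Slc1a2*, *Aqp4* and *Sox9*), while in input the same 4 were higher and *Aldh1l1*, *Gfap* and *Aldoc* were lower. *Acta2* and *Kdr* were the 2 of 7 tested vascular markers that fell, in IP (−0.56 and −0.40) and in input (−0.59 and −0.51). The summed level of the 8 vascular markers listed was 1624 to 1758 CPM in control and 1048 to 1245 CPM in ethanol libraries of IP, and 1293 to 1364 CPM and 893 to 961 CPM in those of input. Most of this sum was *Acta2*, with means of 1589 and 1069 CPM in IP control and IP ethanol and 1186 and 790 CPM in the same groups of input. *Pdgfrb*, at 94.5 and 92.6 CPM in IP, did not pass in either fraction, and *Cldn5* was at 0 in every library. Of 8 oligodendrocyte markers, *Pdgfra* (0.47 in IP and 0.56 in input) and *Cspg4* (0.29 and 0.23) were higher and *Olig1* (−0.17 and −0.19) lower in both fractions, and *Mbp* was higher in input (0.30). Their summed level in IP was 271 to 289 CPM in control and 250.1 to 272 CPM in ethanol libraries. Of 8 neuron markers, *Stmn2* was lower in both fractions (−0.18 in IP and −0.13 in input), and *Slc17a7*, under 1 CPM on average, was higher in input (0.98). *Pdgfrl* was the 1 of 8 fibroblast and meningeal markers that passed and was higher by 0.16 in both fractions. Of 8 microglia markers, *Csf1r* was higher in IP (0.33) and *Csf1r* and *Ptprc* in input (0.22 and 0.26), and their summed level in IP was 9.63 to 10.7 CPM in control and 10.1 to 13.2 CPM in ethanol libraries. The part of these cell types in the ethanol effect on the enzymes was not tested.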

How the data were processed

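Libraries were made with a stranded total RNA kit with rRNA depletion and sequenced as read pairs. Per the labels and methods, reads were trimmed with Trimmomatic, aligned to GRCm38 and counted with STAR. The authors deposited raw counts of read pairs per gene, without regard to strand in the joint table used here and by strand in single files. Pairs mapped to several places (3.60% on average) or to overlapping genes (5.50%) are not in the counts, which lowers genes that overlap others. The share mapped to several places was 4.56% to 4.77% in input, 3.09% to 3.19% in IP control and 2.95% to 3.02% in IP ethanol libraries. Its part in the differences between groups was not tested. From the counts, CPM (TMM) and RPKM were computed here, with exon lengths, GC content and positions from GENCODE M21. Genes with at least 10 read pairs in total were tested with edgeR 4.0.16 (glmQLFit, robust, and glmQLFTest, R 4.3.3) with Benjamini-Hochberg adjustment over all 24495 genes. DESeq2 1.42.0 was run beside it. Ethanol was tested within each fraction, IP against input over 18 libraries with a treatment term, and the difference of the effects as an interaction. Standard errors were taken as the log2 fold change over the square root of F. GC and length trends were removed with a spline of 4 degrees of freedom in each library. IP and input libraries of the same title number come from the same dish. Their residuals correlated at 0.0191 to 0.153, inside the range for libraries of different dishes (−0.104 to 0.221). The pairing by dish therefore rests on the titles and not on these correlations. The genes, lists and tests were chosen with earlier results of these data known. Full values are given for members that passed for ethanol, up to 3 in a role, and for the 3 largest differences between fractions in each direction. The scripts were tested on simulated data. Precision fell with the level of a gene, also above 1 CPM. With counts of the sense strand, the SE for ethanol in IP was 0.0218 for *Sulf2*, 0.0588 for *Csgalnact1* and 0.128 for *Hs6st3*.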

Additional observations from a re-analysis of the deposited data

Results flagged for a closer look

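Among 90 groups of 6 IP libraries, each 1 gene of the list in 1 treatment, 4 held a library set apart from the other 5 by more than Dixon's 95% critical value of 0.625 of the range, and 4.5 are expected by chance at 1 in 20. *Csgalnact1* was at 7.41 CPM in IP ethanol replicate 4 and at 6.39 to 6.75 CPM in the others. *Chst11* was at 92.7 CPM in IP control replicate 4 and at 95.3 to 96.8 CPM in the others. *Extl2* was at 73.4 CPM in IP control replicate 5 and at 68.0 to 69.9 CPM in the others. *Sulf1* was at 93.5 CPM in IP control replicate 1 and at 87.3 to 89.1 CPM in the others. The ethanol effect on *Ndst1* differed between IP and input by 0.15 on the log2 scale with the dish as a block (adjusted p = 0.00414, edgeR), and did not pass over the 18 libraries without it.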

How the results depend on the processing

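No called result reversed under any alternative run. When tested for a change above 1.2-fold, 0 genes of the list passed for ethanol in IP and 0 in input (0.388% and 0.225% of all genes), and 18 (11 higher and 7 lower) differed between IP and input (20.2% of all genes). For ethanol in IP, replicates 4 to 6 gave 10 calls and replicates 1 to 3 gave 7. DESeq2 called 19 genes in IP, 10 in input and 31 between fractions, beside 22.5%, 12.7% and 50.2% of all genes. Of its calls in input, *Hs3st1* and *Ndst1* were lower. Leaving out single libraries, the calls numbered 13 to 17 in IP, all higher, 6 to 10 in input, 30 to 31 between fractions and 0 to 0 for the difference of effects. In input, 6 remained without input control replicate 5 and 7 without input ethanol replicate 6. For scale, the main runs with all libraries called 21.4% of all genes in IP, 15% in input and 51% between fractions. The number links control and ethanol dishes in name alone, with correlations of −0.104 to 0.221, and this number as a replicate block gave 18 calls in IP and 12 in input. The dish as a replicate block gave 30 calls between fractions and 1 for the difference of effects (*Ndst1*), and changed no other call.

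CPM not divided by length moved the ratios, in the order IP control, IP ethanol, input control and input ethanol. The 4-O over 6-O ratio became 2.79, 2.79, 3.37 and 3.42, the share of *Ndst1* 89.2, 90.03, 87.9 and 87.5%, *Sulf1* over *Sulf2* 0.122, 0.122, 0.295 and 0.296, *Papss1* over *Papss2* 6.20, 6.88, 6.36 and 6.94, and *Chst14* over *Dse* 0.861, 0.967, 0.836 and 0.913. The changes of 4.78% to 14.3% are small against the spread of low genes. Neither the 4 genes under 1 CPM nor *Hs6st3*, near 1 CPM, could show changes of that size. Input has 3 libraries a group, so a missed threshold there shows no lack of change.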
